A study of Drosophila melanogaster with 2 samples.

Results

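The genes of proteasome subunits were examined for binding of Tonalli, the product of tna, in whole Drosophila melanogaster embryos. Members were protein-coding genes with symbols beginning Prosalpha, Prosbeta, Rpn or Rpt followed by a number, which gave 48 of the 13968 protein-coding genes on the assembled chromosome arms. Of the 48, 25 encode the core particle, 14 the base and 9 the lid, and 16 are testis-type paralogues (symbols ending in T or R, with or without a number), which leaves 32 general subunits. A gene was called bound when the summit of a peak lay within 500 bp of an annotated start. In the conservative peak list 14 of the 48 members were bound, against 18.2% of all protein-coding genes. All 14 were general subunits, 14 of 32, and 0 of the 16 testis-type paralogues were bound.

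Chromatin immunoprecipitation and sequencing (ChIP-seq) was done on transgenic flies of the strain tna-GFP, which carry an insertion targeting tna and make a fusion of its product to eGFP. The description names an antibody to GFP, while the antibody field names tna. Embryos were 0 to 24 h old, so all embryonic stages and tissues were mixed and no adult testis was sampled. There was 1 group with 2 biological replicates, and no second genotype, treatment or time. Sonication gave fragments of 200 to 800 bp. A control library was not analysed here, and what drives the fusion gene is not stated in the sources used here.

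The proteasome degrades proteins tagged with ubiquitin. Its barrel-shaped core particle has outer rings of alpha subunits, which gate the entrance, and inner rings of beta subunits, of which beta1, beta2 and beta5 cut the protein. The regulatory particle on either end has a base, where the Rpt ATPases unfold and push in the substrate, and a lid, where Rpn11 removes ubiquitin. Subunits are needed in fixed proportions, and in animals their genes are known to be raised together by a stress factor that in flies is encoded by cnc. Several testis-type paralogues of Drosophila are known to replace a general subunit during sperm formation. The SP-RING protein Tonalli is related to SUMO ligases and interacts genetically with the Brahma chromatin remodeller.

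Every bound subunit gene had the string CGATA within 100 bp of the summit of its peak. CGATA is the string bound by the boundary protein BEAF-32, and it is contained in the DNA replication-related element (DRE), TATCGATA, which DREF binds. The DRE reads the same on both strands, so it counts as a CGATA match on each. The sites nearest to the summits are shown for 9 of the 14 bound genes, each with 10 bases on either side, from the RefSeq sequence of dm6. They run 5′ to 3′ on the strand that reads CGATA, and capitals mark CGATA, or the whole DRE where there was one.
Rpn10 (chr3L:21537024-21537048, plus strand): attttaatgcCGATAgttcaggcag
Rpn12 (chr3L:16582975-16582999, plus strand): ataactgttcCGATAacgattgtcc
Prosbeta2 (chr3L:14999684-14999708, plus strand): aacagtaTATCGATAtttttcaaac
Rpn2 (chr3R:29153488-29153512, plus strand): cggtacacatCGATAgcaagacatc
Rpt6 (chrX:21315989-21316013, minus strand): caatcggcatCGATAaaaacgctag
Rpt5 (chr3R:23752823-23752847, plus strand): ctgtcacTATCGATAagcgccggcg
Rpn3 (chr2L:19051856-19051880, minus strand): ttcaattTATCGATAcgttttacgg
Rpn9 (chr3R:23733422-23733446, plus strand): gcgagaaTATCGATAtttaaccggg
Prosalpha6 (chr2L:10221325-10221349, minus strand): tatcgggTATCGATAagggattcgg

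In these 9 sites the DRE was present at Prosbeta2, Rpt5, Rpn3, Rpn9 and Prosalpha6, while Rpn10, Rpn12, Rpn2 and Rpt6 had CGATA outside a DRE. Across all 14 bound members the median distance between summit and nearest CGATA was 8.5 bp, from 1 bp at Prosalpha7 to 93 bp at Rpn3, and in 11 it lay within 25 bp. The median over bound protein-coding genes with a CGATA within 1000 bp was 18 bp. A CGATA lay within 100 bp of the summit at 14 of 14 bound members and at 81.1% of all 2541 bound protein-coding genes. A DRE lay within that distance at 6 of 14 members and at 31.5% of bound genes.

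Bases upstream of the start, up to 200 and stopping at any annotated exon, are shown for 4 bound genes and for 2 testis-type paralogues, so that Rpn12 and Rpt6 can be read beside Rpn12R and Rpt6R. Each ends at the base before the start, runs 5′ to 3′ in the direction of transcription, and carries capitals for the DRE and for CGATA on either strand.
Rpn12 (chr3L:16582828-16583027, plus strand): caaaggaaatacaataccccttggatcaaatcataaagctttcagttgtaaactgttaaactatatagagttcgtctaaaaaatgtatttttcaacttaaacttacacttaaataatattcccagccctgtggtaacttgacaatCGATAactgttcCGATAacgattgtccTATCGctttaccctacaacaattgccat
Rpn12R (chr3L:15042571-15042770, minus strand): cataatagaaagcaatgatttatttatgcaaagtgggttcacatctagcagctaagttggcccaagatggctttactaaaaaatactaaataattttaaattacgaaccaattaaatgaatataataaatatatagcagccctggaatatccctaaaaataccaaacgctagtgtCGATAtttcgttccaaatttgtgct
Rpt6 (chrX:21315870-21316051, plus strand): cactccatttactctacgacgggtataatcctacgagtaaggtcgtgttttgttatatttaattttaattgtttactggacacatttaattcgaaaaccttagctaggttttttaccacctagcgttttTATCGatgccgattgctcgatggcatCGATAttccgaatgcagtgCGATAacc
Rpt6R (chr3R:30583698-30583897, minus strand): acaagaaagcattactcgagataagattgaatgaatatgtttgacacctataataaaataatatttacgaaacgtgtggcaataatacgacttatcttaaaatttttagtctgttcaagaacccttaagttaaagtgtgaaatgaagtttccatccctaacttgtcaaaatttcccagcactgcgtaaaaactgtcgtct
Prosbeta2 (chr3L:14999751-14999950, plus strand): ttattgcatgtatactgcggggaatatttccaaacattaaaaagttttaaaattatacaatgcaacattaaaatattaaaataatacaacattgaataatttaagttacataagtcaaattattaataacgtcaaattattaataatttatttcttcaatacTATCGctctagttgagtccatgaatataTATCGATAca
Rpn2 (chr3R:29153324-29153523, plus strand): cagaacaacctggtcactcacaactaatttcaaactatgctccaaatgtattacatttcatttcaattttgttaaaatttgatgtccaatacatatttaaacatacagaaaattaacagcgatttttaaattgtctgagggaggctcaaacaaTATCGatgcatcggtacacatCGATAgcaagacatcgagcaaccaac

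The upstream bases of Rpn12, Rpt6, Prosbeta2 and Rpn2 each hold more than 1 marked string. Those of Rpn12R hold a single CGATA and those of Rpt6R none. This contrast covers only the sequences shown. The upstream bases of the bound genes Rpn10, Rpt5 and Rpn3, cut short at an annotated exon, hold no marked string. Those of the paralogue Prosbeta2R2 and of the unbound general genes Rpn11 and Prosalpha4 hold more than 1. Neither Rpn12R nor Rpt6R had a peak within 500 bp in the ranked list of both replicates, which holds peaks before any threshold on reproducibility.

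Binding was seen in all 3 assemblies of the general proteasome. Among general subunits 5 of 14 core genes, 5 of 10 base genes and 4 of 8 lid genes were bound in the conservative list, against 18.2% of all protein-coding genes. Within the core these were 2 of 7 alpha and 3 of 7 beta genes, and within the base 3 of 6 Rpt ATPase genes and 2 of 4 Rpn genes. With testis-type paralogues included the counts were 5 of 25, 5 of 14 and 4 of 9. The 3 assemblies were therefore not separated by their counts, which differ by a few genes, and no test was made between them.

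The second list made from both replicates gave 14 bound members against 22.2% of protein-coding genes. The replicate 1 list gave 13 against 16.4%, and the replicate 2 list gave 14 against 17.7%. A peak in both single lists was found at 12 members, against 12.1% of protein-coding genes. No testis-type paralogue was bound in any of these lists. Of the 14 members of the conservative list, 12 were in the replicate 1 list, 13 in the replicate 2 list and 12 in the second list from both. The irreproducible discovery rate (IDR) is low for a peak that ranks consistently high in the lists being compared. At an IDR of at most 0.001, 10 members were left against 9.23% of protein-coding genes, and the lid count fell from 4 to 2.

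**Figure D1:**
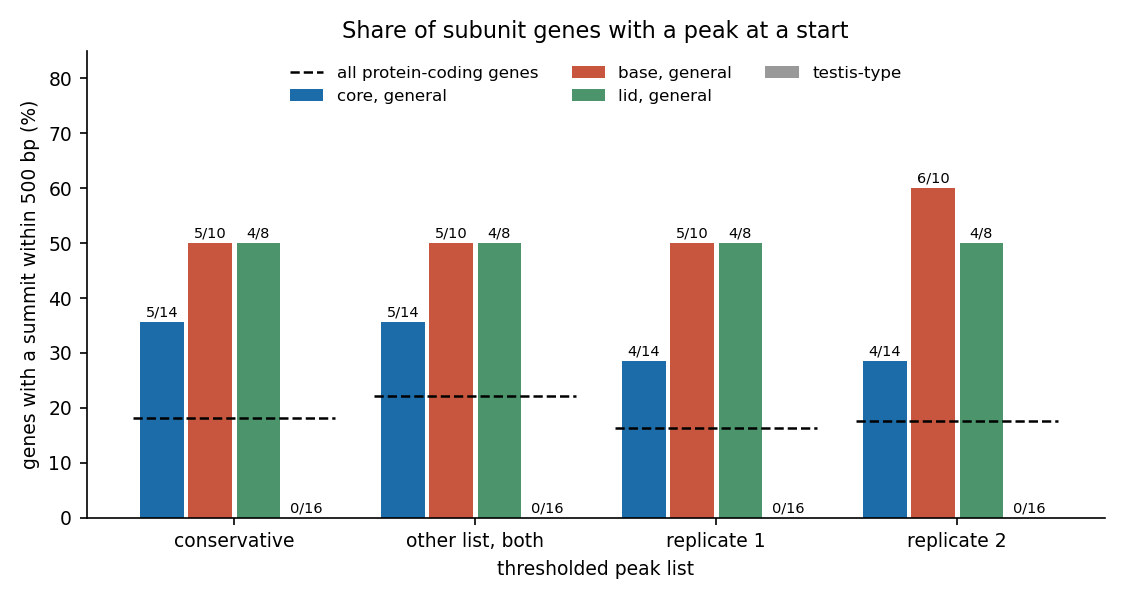
Percent of subunit genes with a summit within 500 bp of a start (y axis) in 4 thresholded peak lists (x axis), with bars for general core, base and lid subunits and for testis-type paralogues, counts above the bars, and a dashed line for all protein-coding genes in that list. The bars of general subunits stand above the dashed line in each list, and testis-type paralogues are at 0 of 16 throughout.

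The lid gene Rpn6 (FBgn0028689) had the strongest peak of the family. Rpn6 encodes the subunit that braces the lid against the core particle. Its signal, the value the authors' peak caller gave each peak, was 1129 in the conservative list, and replicates 1 and 2 gave 673 and 482. The peak, at 2R 14752194 to 14752549 in dm6, ranked 3 of 2580 and had its summit 92 bp upstream of a start of Rpn6. Both replicates placed the summit within a few bases of there, at 95 and 91 bp upstream. Rpn6 has 2 annotated starts, and the start used is the downstream one, inside the gene. The summit lies downstream of the other start and more than 500 bp from it. With the most upstream start alone Rpn6 was therefore not bound, and the lid count was 3. Lists made from both replicates gave the same signal for a shared peak, such as 1129 at Rpn6. Signals of each single replicate are on their own scale. They are not compared with those lists or with the other replicate.

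The other lid peaks were weaker. Rpn12, a small structural lid subunit, had a conservative signal of 246, with 111 and 116 in replicates 1 and 2. Rpn3, a scaffold of the lid, had 166, 92.1 and 58.3 in the same lists. The peak at Rpn9, another scaffold subunit, was among the least certain: its conservative signal was 105, replicate 2 gave 70.2, and the deposited q-value was 0.209. In replicate 1 Rpn9 had a ranked peak of signal 46.7 at an IDR of 0.796, which did not reach the thresholded list. In dm6 the peaks lay at 3L 16582777 to 16583186 for Rpn12 (FBgn0028693), 2L 19051570 to 19051979 for Rpn3 (FBgn0261396) and 3R 23733297 to 23733706 for Rpn9 (FBgn0028691).

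In the core particle the alpha-ring gene Prosalpha7 led. Its conservative signal was 707, against 408 and 298 in replicates 1 and 2 on their own scales, with the summit 41 bp upstream of the start and a rank of 34. Prosalpha6 was the only other bound alpha gene, and its peak was the weakest of the 14 at a signal of 81.8, with 2 conservative summits near the start. It was in neither single list nor the second list from both. Its strongest ranked peaks had an IDR of 0.849 in replicate 1 and 0.0433 in replicate 2, and the q-value of the conservative peak was 0.449. Those ranked peaks lay 89 bp upstream (-89) and 217 bp downstream of the start, while the conservative summit was 18 bp upstream (-18). In dm6 the peaks lay at 2R 9847736 to 9848007 for Prosalpha7 (FBgn0023175) and 2L 10221128 to 10221537 for Prosalpha6 (FBgn0250843).

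All 3 genes for the cutting subunits of the beta ring were bound. Prosbeta1, the caspase-like subunit, had a conservative signal of 351, with 142 in replicate 1 and 196 in replicate 2. Prosbeta2, the trypsin-like subunit, had 220, 188 and 75.1, and Prosbeta5, the chymotrypsin-like subunit, had 202, 99.5 and 109. None of the other beta genes, Prosbeta3, Prosbeta4, Prosbeta6 and Prosbeta7, was bound in the conservative list or in either single list, and Prosbeta7 alone was bound in the second list from both, at 99.3. This split of 3 of 3 against 0 of 4 was noticed after the values were seen and was not tested, and the peaks at Prosbeta1 and Prosbeta2 lay nearer to another gene. The Prosbeta2 summit moved between replicates, from 107 bp upstream of the start in replicate 1 to 244 bp in replicate 2. In dm6 the peaks lay at 2R 16014788 to 16014991 for Prosbeta1 (FBgn0010590), 3L 14999561 to 14999970 for Prosbeta2 (FBgn0023174) and 2R 10819871 to 10820015 for Prosbeta5 (FBgn0029134).

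In the base the ubiquitin receptor gene Rpn10 had the strongest peak. Its conservative signal was 441, with 232 and 205 in replicates 1 and 2, at rank 193. Rpn10 was the only bound member with its summit downstream of the start used, by 30 bp, and by 30 and 33 bp in the replicates. That start is the first of 2 annotated for Rpn10, and the summit lies upstream of the second. Rpn2, a large scaffold of the base, had 215, 123 and 107 in the 3 lists. Of the 6 genes for the ATPase ring, 3 were bound at close values. Rpt6 had a conservative signal of 213, with 83.1 and 99.6 in replicates 1 and 2. Rpt5 had 212, 97.5 and 122, and Rpt1 had 192, 106 and 96.4. In the conservative list these and Rpn2 span 192 to 215, and their order changes between replicates. In dm6 the peaks lay at 3L 21536915 to 21537133 for Rpn10 (FBgn0015283), 3R 29153291 to 29153700 for Rpn2 (FBgn0028692), X 21315806 to 21316215 for Rpt6 (FBgn0020369), 3R 23752762 to 23752888 for Rpt5 (FBgn0028684) and 2R 7653922 to 7654054 for Rpt1 (FBgn0028687).

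The deposited signal of 10 of the 14 members was above the median of bound genes. The median was 214 over the members and 197 over the strongest promoter peaks of all bound protein-coding genes. Rpn6, Prosalpha7 and Rpn10 were in the top 10% of the conservative list. A q-value of at most 0.05 was found for 12 of the 14, all but Rpn9 and Prosalpha6. Across the 14 members the log2 ranked signals of replicates 1 and 2 had a Pearson r of 0.870 and a Spearman rho of 0.758, given as a description across genes of the same 2 libraries. A threshold on reproducibility chose the 14, so part of this agreement is built in. At Prosalpha6 the 2 ranked peaks lay at different sites, 89 bp upstream (-89) and 217 bp downstream of the start.

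**Figure D2:**
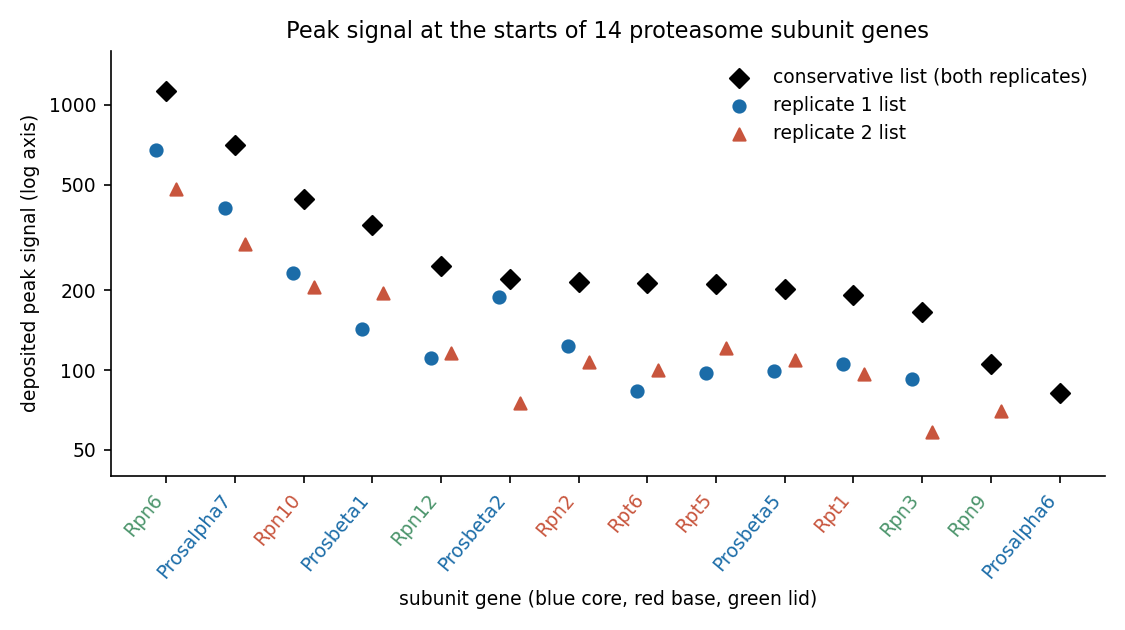
Deposited peak signal (y axis, log scale) at the start of each of the 14 bound subunit genes (x axis, ordered by the conservative list), in the conservative list and in each replicate's thresholded list. Rpn6 and Prosalpha7 lead in all 3 lists, while Rpn9 has no replicate 1 point and Prosalpha6 has neither replicate point. Marker heights are compared only within a list.

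Summits sat just upstream of the starts. The median position was 40.5 bp upstream over the 14 members (-40.5) and 43 bp upstream over all bound protein-coding genes (-43). Of the 14 summits 13 were upstream and 11 were within 60 bp of the start. The farthest were Prosbeta2 at 185 bp upstream (-185) and Prosbeta1 at 106 bp upstream (-106).

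**Figure D3:**
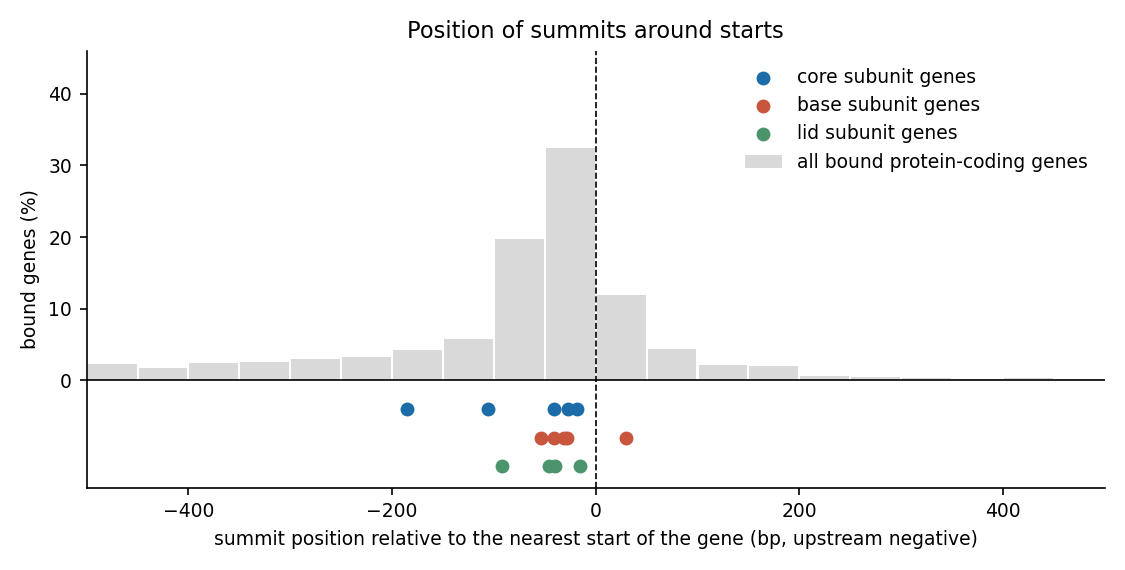
Position of the summit relative to the nearest start of its gene (x axis, bp, upstream negative). Grey bars give the percent of all 2541 bound protein-coding genes in bins of 50 bp (y axis), and points below the zero line are the 14 bound subunit genes by assembly. Of the 14 points, 9 lie in the bin from -50 to 0 bp, which is also the tallest grey bar.

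Many of these promoters were shared with a neighbouring gene. In 10 of the 14 bound members the summit also lay within 500 bp of another protein-coding start, and only Rpn10, Rpn12, Rpt6 and Rpt1 had none. Such sharing was common among bound genes: 54.7% of all bound protein-coding genes had another gene's start within 500 bp of their own, as did 30.8% of all protein-coding genes. In 3 members that other start was nearer than the subunit gene's own. The Rpt5 summit was 11 bp from the start of RanBP3, the Prosbeta1 summit 15 bp from that of Rrp42, and the Prosbeta2 summit 100 bp from that of mRpL39. Whether such a peak belongs to the subunit gene or to its neighbour cannot be told from these lists. With each summit given to its nearest start alone, 11 members were bound against 13.6% of protein-coding genes, and the core count fell from 5 to 3.

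A close neighbour went with binding across the genome. Of protein-coding genes with another gene's start within 500 bp, 32.2% were bound, and of those without, 11.9%. Part of this difference is built into the rule, which gives a summit to every start within 500 bp. A single peak between close starts therefore counts for both genes. Among general subunits the counts were 10 of 21 with such a neighbour and 4 of 11 without. Among testis-type paralogues 3 had such a neighbour and 13 had none, and 0 were bound in either case.

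Of the 18 general subunits without a conservative peak, 3 had a peak in another thresholded list. Rpn1, a base scaffold that docks ubiquitin-binding proteins, had a peak of signal 76.0 in replicate 2, 56 bp downstream of its start, and its ranked peak in both replicates had an IDR of 0.0277. Rpn5, a lid scaffold, had one of 62.6 in replicate 1, 313 bp upstream, and one of 98.3 in the second list from both. Prosbeta7 was in that second list only. The replicates differed at Rpn1, with an IDR of 0.808 in replicate 1, and at Rpn5, with an IDR of 0.716 in replicate 2. Prosbeta7 missed the threshold in both, with IDRs of 0.168 and 0.264. The 15 general subunits with no thresholded peak were Rpn7, Rpn8, Rpn11, Rpn13, Rpt2, Rpt3, Rpt4, Prosalpha1, Prosalpha2, Prosalpha3, Prosalpha4, Prosalpha5, Prosbeta3, Prosbeta4 and Prosbeta6. Rpn11 is the deubiquitinase of the lid and Rpn13 is a ubiquitin receptor.

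Most of the unbound general subunits still had a weak ranked peak. In the ranked list of both replicates 17 of the 18 had one within 500 bp of a start, against 76.4% of all protein-coding genes, and Prosalpha1 had none. Signals ran from 20.5 at Rpn11 to 99.3 at Prosbeta7, with a median of 62.6. The nearest to the threshold of 0.01 was Rpt3, an ATPase gene, with a signal of 84.2 at an IDR of 0.0161. Unbound therefore means no peak in the conservative list at the depth of these libraries, which is unknown, and not that a signal was absent.

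Ranked peaks were fewer at the testis-type paralogues. Of the 16, 7 had one in the ranked list of both replicates, with signals from 9.85 at Prosbeta5R1 to 79.3 at Prosbeta2R2 and a median of 37.8. Prosbeta2R2 was the closest to the threshold, at an IDR of 0.0450, and its start lies 129 bp from that of CG1116. The other 6 were Rpt3R, Rpt4R, Prosalpha3T, Prosalpha4T1, Prosalpha4T2 and Prosbeta5R1, with IDRs from 0.448 to 0.835. That list held no peak near Rpn12R, Rpn13R, Rpt6R, Prosalpha1R, Prosalpha6T, Prosbeta2R1, Prosbeta4R1, Prosbeta4R2 or Prosbeta5R2. In the single ranked lists, 10 of the 16 paralogues had a peak in replicate 1 and 5 in replicate 2. These included Prosalpha6T (37.3), Prosbeta4R1 (18.6) and Prosbeta4R2 (17.0) in replicate 1 and Rpt6R (20.5) in replicate 2. Among the 32 general subunits the counts in those lists were 29 and 31. The share of all protein-coding genes was not counted for the single ranked lists, so these counts have no background.

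Each paralogue was set beside the general gene it is named for. The general counterpart was bound for 7 of the 16 paralogues. Rpt6 had a signal of 213 and Rpn12 of 246, while Rpt6R and Rpn12R had no peak in the ranked list of both replicates. Prosbeta5 had 202 and its paralogue Prosbeta5R1 had a ranked peak of 9.85, while Prosbeta5R2 had none in that list. Prosbeta2 had 220, Prosbeta2R2 79.3 and Prosbeta2R1 no ranked peak there. Over all pairs, 10 of the 16 paralogues have fewer exons than their general counterpart. Among the pairs named here, Rpt6R, Prosbeta5R1 and Prosbeta5R2 have fewer. Rpn12R, Prosbeta2R1 and Prosbeta2R2 have the same number as their general gene.

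**Figure D4:**
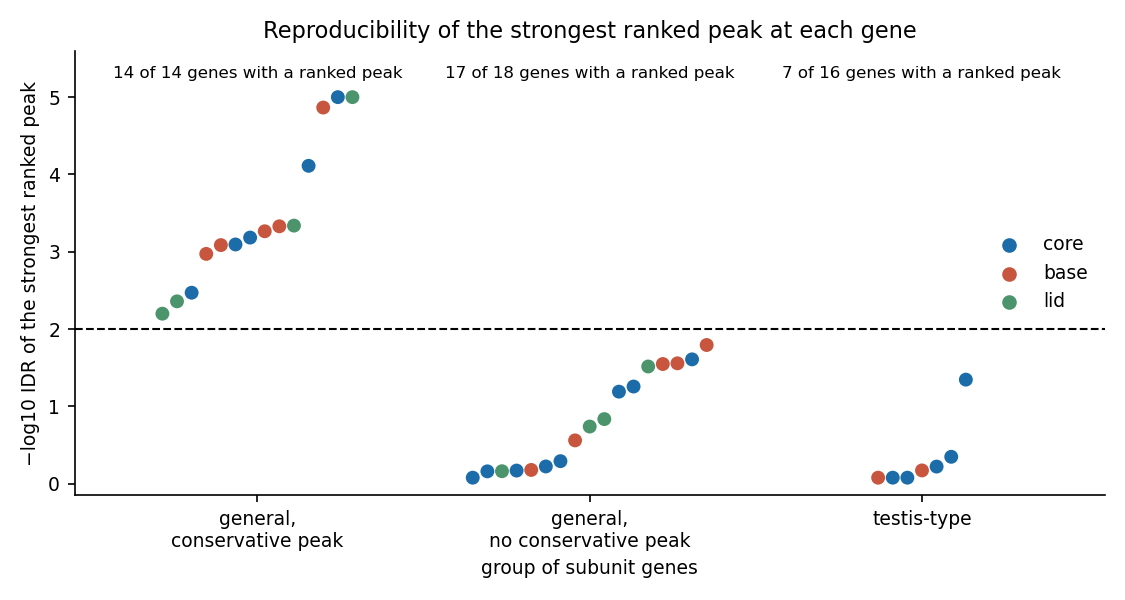
Reproducibility of the strongest ranked peak within 500 bp of a start, as −log10 IDR in the ranked list of both replicates (y axis, at most 5), for general subunits with and without a conservative peak and for testis-type paralogues (x axis, points coloured by assembly). The dashed line is the threshold, an IDR of 0.01. The first group lies above it because that threshold chose it, and 17 of 18 unbound general genes but 7 of 16 paralogues have a point at all.

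Promoter windows, from 250 bases before to 50 after any start, were searched on both strands for strings of known promoter factors. CGATA was in the windows of 14 of 14 bound general subunits, 14 of 18 unbound ones and 8 of 16 testis-type paralogues, against 53.0% of all protein-coding genes and 87.4% of bound ones. Of all genes with a CGATA in the window 30.0% were bound, and of genes without one 4.89%. Among general subunits 14 of 28 were bound where CGATA was present and 0 of 4 where it was not. The 8 testis-type paralogues with CGATA had 0 bound.

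The DRE was in the windows of 7 bound general subunits, Rpt5, Rpn3, Rpn9, Rpn12, Prosalpha6, Prosbeta1 and Prosbeta2. It was also in those of 5 unbound ones, Rpn7, Rpn13, Prosalpha3, Prosalpha5 and Prosbeta6, and of 1 paralogue, Rpt3R. The background was 10.2% of all protein-coding genes and 33.7% of bound genes. Of genes with a DRE 60.4% were bound, while among members the count was 7 of 12 for general subunits and 0 of 1 for paralogues. The strongest peaks, at Rpn6, Prosalpha7 and Rpn10, had CGATA but no DRE.

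Motif 1, GGTCACAC, which the factor M1BP binds, was seen only at subunit genes unbound in the conservative list. It was in the windows of 0 of 14 bound general subunits and 7 of 18 unbound ones, Rpn1, Rpn7, Rpn8, Prosalpha2, Prosalpha4, Prosbeta3 and Prosbeta7, and of 0 of 16 paralogues. Over all protein-coding genes the share was 8.69%, and it was 11.6% among bound genes and 8.05% among the others. Of all genes with Motif 1 in the window 24.2% were bound, and of the 7 members with it 0 were. In other lists 2 of the 7 had a peak, Rpn1 in replicate 2 and Prosbeta7 in the second list from both. The pattern was noticed after the values were seen and was not tested.

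The Motif 1 sites of 6 of these unbound genes are shown with 10 bases on either side, 5′ to 3′ on the strand that reads GGTCACAC, from the RefSeq sequence of dm6, with the motif in capitals.
Rpn1 (chr3L:19915040-19915067, plus strand): ttcgccgcgcGGTCACACtgcaaaaagc
Prosalpha2 (chr3R:12431328-12431355, plus strand): ttcagcattcGGTCACACtgccgcccaa
Prosalpha4 (chrX:16276293-16276320, plus strand): cccatgctgcGGTCACACtgcggcattt
Prosbeta3 (chr3R:9006425-9006452, minus strand): gacgcggcctGGTCACACtgaaagctaa
Prosbeta7 (chr3R:5358253-5358280, plus strand): ctattagcttGGTCACACcgttttacat
Rpn7 (chr3R:22462019-22462046, minus strand): ataattttggGGTCACACtggtagtaca

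A T followed by G after the motif is shared by 5 of the 6 sites, all but that of Prosbeta7. The centre of the motif lay 3 bp after the start at Rpn1, 21 bp after it at Prosalpha2 and Rpn7 and 37 bp after it at Prosalpha4. At Prosbeta7 it lay 92 bp upstream (-92) of the second of 2 annotated starts, and downstream of the first. At Prosbeta3 it lay upstream by 213 bp (-213), where the start of the neighbour Iru is 230 bp from that of Prosbeta3.

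The string TGACNNNGC, the core of sites of Cnc with a small Maf partner, was in the windows of 1 of 14 bound general subunits (Rpt6), 5 of 18 unbound ones and 1 of 16 paralogues (Prosbeta4R2), against 11.2% of all protein-coding genes. At Rpn1, Prosbeta3 and Prosbeta7 it overlapped the Motif 1 site. The TATA string TATAAA was in 4, 10 and 5 windows, against 51.2%. GC content of members was taken in the window of the most upstream start alone, which at Rpn6 is not the start near its peak. Its median was 36.8% for bound general subunits, 32.8% for unbound ones and 32.7% for paralogues, against 38.0% over all protein-coding genes. Each match describes letters in a window and not a bound factor.

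**Figure D5:**
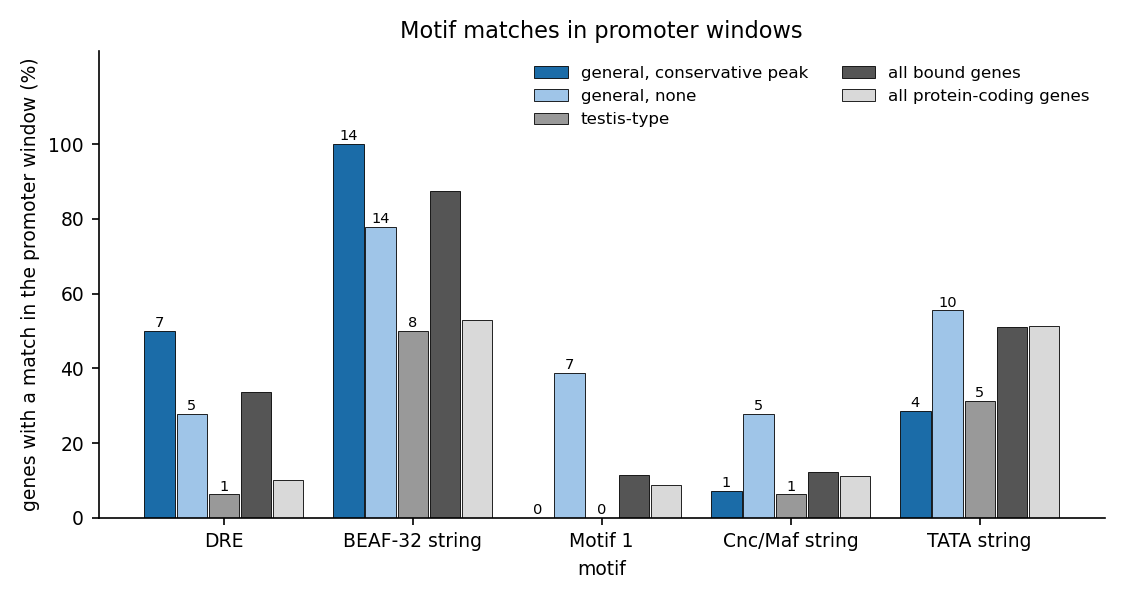
Percent of genes with a match to each of 5 strings in the promoter window (y axis), for general subunits with and without a conservative peak, testis-type paralogues, all bound genes and all protein-coding genes, with member counts above the bars. The BEAF-32 string is CGATA and the Cnc/Maf string is TGACNNNGC. Motif 1 has 7 matches among unbound general subunits and 0 in the other member groups.

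Other genes of the ubiquitin and proteasome pathway were counted in a list of 28 symbols, of which 27 matched the annotation and CSN2 did not. The symbols were picked by hand with earlier results of these data known. Their counts therefore describe this list and not the pathway as a whole. Of the 27, 14 were bound in the conservative list against 18.2% of all protein-coding genes, and 16 in the second list from both against 22.2%. Replicate 1 gave 13 against 16.4%, and replicate 2 gave 12 against 17.7%. Ube3a, the only gene listed as a ubiquitin ligase, ranked 1 in the conservative list, with a signal of 1797 there and of 836 and 963 in replicates 1 and 2.

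The segregase that hands ubiquitinated proteins to the proteasome was bound at each of its 3 listed genes. Npl4 had a conservative signal of 720, with 369 and 333 in replicates 1 and 2. TER94, the ATPase itself, had 396, 199 and 194, and Ufd1 had 228, 85.5 and 165. The shuttle genes rngo (384) and Ubqn (320) were bound, the latter by a peak nearer to dome and absent from the replicate 2 list, and Rad23 was not.

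Of 7 genes of the COP9 signalosome, a relative of the lid, 5 were bound in the conservative list, against 18.2% of all protein-coding genes. They were CSN6 (417), CSN8 (235), CSN3 (194), CSN4 (162) and CSN5 (93.4), and CSN1b and CSN7 were not. The CSN8 peak was nearer to RpS13 and the CSN4 peak nearer to CG8726. CSN4 was absent from the replicate 2 list, and CSN5 was in neither single list. PI31, a regulator of the core particle, had 257, and cnc had 141 with its summit at -367 bp from a start.

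The assembly factor gene Pomp was bound at a signal of 45.0 in the conservative list, while the second list from both held a peak of 134 there. None of the 4 genes that encode ubiquitin itself was bound in the conservative list, and RpL40 (146) and Ubi-p5E (112) were bound in the second list. Uba1, REG, maf-S, the deubiquitinase genes Uch-L5 and Usp14 and the small lid subunit gene Sem1 were unbound in the conservative list.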

How the data were processed

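The authors deposited peak lists on dm6, per the file headers and notes. Each replicate has 1 thresholded and 1 ranked list, and 2 of each derive from both replicates. The deposited signal is the peak caller's value per peak, compared only within a list or between lists made from both replicates. The deposited lists also give −log10 of each peak's q-value and, where ranked, −log10 of the global IDR. The deposited summit distance, another value, is counted from the peak's start. The aligner and caller were not given in the sources used here. Without read counts, depth is unknown.

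On the 7 assembled arms the conservative list held 2580 peaks, the second list from both 3500, replicate 1 2214 and replicate 2 2669. The conservative list, at an IDR of at most 0.01, gave the main results. Summits were matched to every start of protein-coding genes in Ensembl release 115, with Python 3.11.15 and pandas 2.3.3. Gene coordinates of all 48 members were the same in RefSeq. The distance step was tried on simulated summits.

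Members, lists and motifs were chosen with earlier results of these data known. Every member was named, with full values for those with a conservative peak or a peak in a single replicate list. Shares of genes are descriptions with no test, since genes are not replicates and there was 1 group. Alternatives covered other lists, windows, thresholds and start rules. Sequences on arm 2R were left out, so 9 of the 14 bound genes show theirs.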

Additional observations from a re-analysis of the deposited data

How the results depend on the processing

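The count of bound members ran from 10 to 14 under every alternative, and testis-type paralogues stayed at 0. Bound members and the share of all protein-coding genes were 14 and 15.9% with summits within 250 bp, and 14 and 20.5% within 1000 bp. Requiring a q-value no higher than 0.05 gave 12 and 13.9%, and an IDR no higher than 0.001 gave 10 and 9.23%. Peak intervals over a start gave 13 and 14.5%, the most upstream start alone 13 and 17.0%, and the nearest start alone 11 and 13.6%. The core count was 3 with the nearest start alone and the lid count 2 at an IDR of at most 0.001. The median signal was 217 under that q-value limit and 233 under that IDR limit, where weaker peaks are left out by construction. In single lists, whose scale differs, it was 108 to 111, and the median summit position was -40 to -32.5 bp. With CGATA in place of the DRE, 14 bound general subunits had a match in place of 7, as the other 7 have CGATA outside any DRE. No paired analysis was possible because there was 1 group. With 2 replicates, no control analysed here and unknown depth, the weaker calls are the less certain ones: Rpn9 is missing from the replicate 1 list and Prosalpha6 from both single lists.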
